A study of Mus musculus with 4 samples.

Results

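The liver clock drives a set of output regulators and stabilizing factors, and 9 of them were examined here in mice lacking ADAR2, an enzyme that edits adenosine to inosine in RNA. The genes were Dbp, Tef, Hlf, Nfil3, Ciart, Bhlhe40, Bhlhe41, Rora and Usp2. They were chosen by name, as were the lists used below, with earlier results of these data known. The shares called among them are therefore descriptions. All 9 were found among the 25655 genes of the deposited count table, each listed once. Liver RNA was compared between 2 libraries of HFD-WT mice (ADAR2+/+ with GluR-B R/R) and 2 libraries of HFD-KO mice (ADAR2-/- with GluR-B R/R). Both genotypes thus carried the GluR-B R/R allele, the edited form of a glutamate receptor subunit, which lets animals without ADAR2 survive. The male mice came from crosses of heterozygotes on a B6129S background and ate a high-fat diet (HFD) for 12 weeks from the age of 5 weeks, under 12 h of light and 12 h of darkness with lights on at 6:00 AM. The hour at which the livers were taken, whether these mice had been fasted and how many mice stood behind a library were not given in the sources used here. A figure legend of the study names more mice a group than there are libraries, without saying whether their RNA was pooled, so the p values measure only the spread between these libraries.

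In the mammalian clock, BMAL1 and CLOCK activate genes through E-box elements, and the PER, CRY and REV-ERB proteins that they induce feed back on them. DBP, TEF and HLF are bZIP activators of the PAR family that bind D-box elements and carry the rhythm to genes of detoxification and lipid metabolism in the liver, while NFIL3 (E4BP4) is a repressor of the same sites. BHLHE40 and BHLHE41 (DEC1 and DEC2) and CIART (CHRONO) repress BMAL1 and CLOCK activity, RORA activates genes through elements that it shares with REV-ERB, and USP2 is a rhythmic deubiquitinase. The transcripts of several of these genes change with the time of day in mouse liver, which makes them readouts of clock phase as well as of its level.

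The upstream sequence of the output genes shows how differently they carry the E-box, and 5 upstream windows are printed because they belong to the genes with an E-box and to Usp2, the gene with the clearest difference between genotypes. Sequences are from the RefSeq promoter table (build GRCm38.p6), which held 8 of the 9 genes, and each is the 250 bases before an annotated start, 5′ to 3′ on the strand of the gene, with E-boxes (CACGTG) in capitals.
Ciart, chr3:95882229-95882478, minus strand: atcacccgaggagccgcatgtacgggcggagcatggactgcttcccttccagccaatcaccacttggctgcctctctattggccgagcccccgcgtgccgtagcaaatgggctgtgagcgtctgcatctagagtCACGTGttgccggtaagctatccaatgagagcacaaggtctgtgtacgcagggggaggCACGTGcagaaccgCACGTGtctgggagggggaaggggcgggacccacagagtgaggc
Bhlhe41, chr6:145865421-145865670, minus strand: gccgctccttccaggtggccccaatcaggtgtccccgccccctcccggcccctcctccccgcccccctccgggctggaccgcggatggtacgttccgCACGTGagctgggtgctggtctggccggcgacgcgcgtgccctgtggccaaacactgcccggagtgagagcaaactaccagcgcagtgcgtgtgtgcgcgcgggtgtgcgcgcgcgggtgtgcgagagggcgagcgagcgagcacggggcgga
Tef, start 1, chr15:81802423-81802672, plus strand: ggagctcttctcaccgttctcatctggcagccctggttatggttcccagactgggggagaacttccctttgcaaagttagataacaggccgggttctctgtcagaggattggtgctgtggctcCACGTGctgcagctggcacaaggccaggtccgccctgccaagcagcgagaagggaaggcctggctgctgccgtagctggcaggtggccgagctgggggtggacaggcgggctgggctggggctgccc
Tef, start 2, chr15:81811164-81811413, plus strand: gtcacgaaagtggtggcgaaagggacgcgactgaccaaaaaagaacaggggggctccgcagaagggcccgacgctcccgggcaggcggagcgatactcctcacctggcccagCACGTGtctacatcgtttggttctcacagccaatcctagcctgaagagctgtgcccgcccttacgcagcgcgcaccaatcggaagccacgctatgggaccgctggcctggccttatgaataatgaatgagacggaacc
Usp2, chr9:44084670-44084919, plus strand: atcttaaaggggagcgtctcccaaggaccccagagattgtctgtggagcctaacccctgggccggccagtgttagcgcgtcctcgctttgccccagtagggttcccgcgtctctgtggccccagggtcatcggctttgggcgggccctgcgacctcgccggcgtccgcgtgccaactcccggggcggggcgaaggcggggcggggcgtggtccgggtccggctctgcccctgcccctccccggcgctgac
The Ciart window held 3 E-boxes, which began 116, 58 and 44 bases before the start. Bhlhe41 had 1 E-box, 153 bases before its start, and each of the 2 Tef starts had 1, at 127 and 138 bases. Of all 32851 windows, 6.02% held a CACGTG and 20, or 0.0609%, held 3 or more. The windows of Usp2, Dbp, Hlf, Rora and Nfil3 held none, which says only that these letters are not within the 250 bases. Usp2 had 1 window, and whether it lies before the first start of the gene or before an internal one was not determined. The positions of the windows and those given below for the genes are of different builds. A D-box (TTATGTAA or TTACGTAA, on either strand) was found in 0 of the 9 windows of these genes and in 0.931% of all windows. An element of the ROR type (TAGGTCA or TGGGTCA, on either strand) was found in the window of Nfil3 only, 12 bases before the start, and in 5.38% of all windows.

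The libraries held 28691330 and 26907857 counted reads in HFD-WT, and 26540624 and 24480798 in the HFD-KO group. Adarb1, which encodes ADAR2, had 15.7 and 19.8 CPM (counts scaled to the library size, with edgeR's TMM adjustment) in HFD-WT and 6.23 and 9.55 CPM in HFD-KO livers (log2 fold change -1.17, adjusted p = 0.159 by edgeR), so both HFD-KO libraries lay below both HFD-WT libraries. Of the 6 listed hepatocyte marker symbols 5 were matched, and their summed level was between 71848 and 86216 CPM, with 1 of the 5, Serpina1c, higher in HFD-KO livers at an unadjusted p under 0.05. The summed level of 9 Kupffer cell and macrophage markers was 359 and 448 CPM in HFD-WT and 287 and 273 CPM in HFD-KO livers, and 6 of the 9 (Clec4f, Cd5l, Vsig4, Adgre1, Csf1r and Mpeg1) were lower at an unadjusted p under 0.05. Stellate cell markers summed to 276 and 311 CPM against 243 and 181 CPM, with 3 of 5 (Reln, Dcn and Col1a1) lower at that threshold, and 1 of 5 sinusoidal endothelial markers, Lyve1, was lower. The 6 lymphocyte markers summed to 12.3 CPM in HFD-KO replicate 1 and to between 2.97 and 3.56 CPM elsewhere, and the 5 erythroid markers summed to 1146 CPM in HFD-KO replicate 2 and to between 600.5 and 811 CPM elsewhere. Of these, 0 lymphocyte and 3 erythroid markers were called at that threshold, the latter (Hba-a1, Hba-a2 and Hbb-bs) all higher, and 0 of 4 cholangiocyte markers. Over all genes tested, 4.25% were called higher and 4.73% lower at that threshold by edgeR. All matched markers of these lists had a read in every library. The part of these differences in the results on the clock genes was not tested.

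Usp2 and Ciart were lower in HFD-KO livers, Bhlhe40 and Bhlhe41 were higher, and the groups of the PAR bZIP genes Tef and Hlf overlapped. Usp2 differed most, at 0.607 times its HFD-WT level, followed in p by Ciart at 0.736 times and by Bhlhe40 at 1.26 times. At an unadjusted p under 0.05 by edgeR's quasi-likelihood test, 4 of the 9 genes (44.4%) were called, 2 higher and 2 lower, beside 8.98% of the 12967 genes tested (4.25% higher and 4.73% lower). At an adjusted p under 0.05 edgeR called 0 of the 9 genes, beside 0.0771% of all genes, and DESeq2's Wald test called 1, Usp2, beside 0.887% of all genes. The log2 fold changes of the 9 genes ran from -0.72 to 0.64 with a median of 0.038, beside a median of 0.007 over all genes. All 9 genes passed the filter on low counts.

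**Figure D1:**
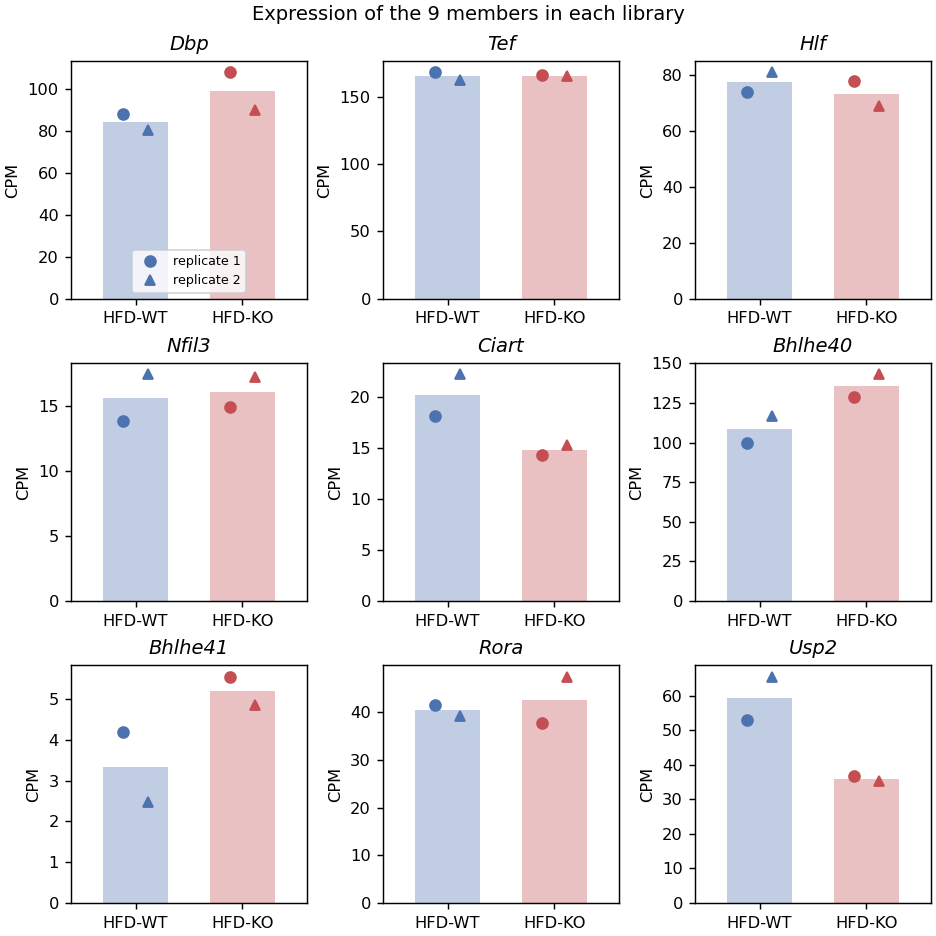
Expression of the 9 genes in CPM on linear axes from 0, with bars for the mean of each group, circles for replicate 1 and triangles for replicate 2. Both HFD-KO values lie below both HFD-WT values for Usp2 and Ciart and above them for Dbp, Bhlhe40 and Bhlhe41, and the groups overlap for the other 4 genes.

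Complete separation of the groups was common in these libraries: 5 of the 9 genes (3 higher, 2 lower) did not overlap between groups, beside 40.8% of all genes tested (20.5% higher and 20.3% lower). In order of the edgeR p, Usp2 ranked 38 and Ciart 249 among the 12967 genes, Bhlhe40 ranked 467, Bhlhe41 1059 and Dbp 1456.

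Usp2 (ENSMUSG00000032010; chromosome 9 from 43978318 to 44006924, plus strand, in the positions of the table, which are those of GRCm39) encodes a deubiquitinase that acts on clock proteins among other substrates. It had 1534 and 1804 reads in HFD-WT and 965 and 844 reads in HFD-KO replicates 1 and 2, or 53.0 and 65.6 CPM against 36.7 and 35.3 CPM. The lower HFD-WT value was above the higher HFD-KO value, and the HFD-KO replicates differed by a factor of only 1.04. Means were 59.3 ± 8.92 CPM (SD, n = 2) and 36.0 ± 0.932 CPM (SD, n = 2). The log2 fold change was -0.72 (SE 0.11, 95% interval -0.99 to -0.45, adjusted p = 0.115 by edgeR). The difference was past an unadjusted p of 0.05 in all 9 alternatives, with log2 fold changes from -0.87 to -0.56, and its adjusted p ranged from 5.22e-05 without HFD-KO replicate 1 to 0.747 without HFD-WT replicate 2 (0.000445 with DESeq2). In bulk liver RNA, fewer cells that express a gene and less RNA per cell cannot be told apart.

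Among 9275 tested genes with a mean of at least 5 CPM, those with the profile nearest to Usp2 over the 4 libraries were Ifi207, Lyve1, Ppl, Tns1 and Cd5l, with distances between centred log2 profiles of 0.094, 0.12, 0.13, 0.13 and 0.14. The likeness rests on 4 points and is a description. Cd5l, a macrophage marker, had 88.1 and 117 CPM in HFD-WT and 65.5 and 67.7 CPM in HFD-KO livers. Lyve1, the hyaluronan receptor of sinusoidal endothelium, had 23.3 ± 4.93 CPM (SD, n = 2) against 14.3 ± 0.362 CPM. The other 4 endothelial markers (Stab2, Clec4g, Pecam1, Kdr) overlapped between the groups. Of the 9 Kupffer cell markers 8 had a log2 fold change below 0, as Usp2 did, beside 6282 of all 12967 genes tested. Marco had one of 0.46 with overlapping groups. The part of these cells in the Usp2 difference was not tested.

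Ciart (ENSMUSG00000038550; chromosome 3 from 95785815 to 95789563, minus strand), the gene with the 3 E-boxes printed above, had 18.1 and 22.2 CPM in HFD-WT and 14.3 and 15.3 CPM in HFD-KO livers, from between 366 and 610 reads. Both HFD-KO values were below both HFD-WT values. The means were 20.2 ± 2.86 CPM (SD, n = 2) and 14.8 ± 0.71 CPM (SD, n = 2), a log2 fold change of -0.44 (SE 0.12, 95% interval -0.72 to -0.16). The difference was past an unadjusted p of 0.05 by edgeR, with an adjusted p of 0.358. Without HFD-WT replicate 2, the library with the highest value, the log2 fold change was -0.29 and no longer past that threshold, and it was past it in the other 8 alternatives.

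Bhlhe40 (ENSMUSG00000030103; chromosome 6 from 108637590 to 108643886, plus strand) encodes the E-box repressor DEC1, which also answers to feeding and hypoxia. It had 99.6 and 117 CPM in HFD-WT and 129 and 143 CPM in HFD-KO livers, from at least 2885 reads in each library. The groups did not overlap, but the gap between them was smaller than the gap between the replicates of either group. The log2 fold change was 0.33 (SE 0.10, 95% interval 0.08 to 0.57, adjusted p = 0.421 by edgeR). Without HFD-WT replicate 1, the lowest value, it was 0.21 and not past an unadjusted p of 0.05, and in the other 8 alternatives it was past it.

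Bhlhe41 (ENSMUSG00000030256; chromosome 6 from 145803969 to 145811284, minus strand) encodes the paralog DEC2 and was the least abundant of the 9 genes. It had 121 and 68 reads in HFD-WT and 146 and 116 reads in HFD-KO livers, or 4.18 and 2.47 CPM against 5.55 and 4.86 CPM. HFD-WT replicate 2 stood lowest, and the HFD-WT replicates differed by a factor of 1.69, the widest replicate ratio among the 9 genes. The log2 fold change was 0.64 (SE 0.26, 95% interval 0.02 to 1.26, adjusted p = 0.536 by edgeR). It was 0.32 without HFD-WT replicate 2, 0.54 without HFD-KO replicate 1 and 0.60 when libraries were scaled by their totals only, and in these 3 of the 9 alternatives it was not past an unadjusted p of 0.05. The lower end of the interval lies close to 0.

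Dbp (ENSMUSG00000059824; chromosome 7 from 45354512 to 45359627, plus strand) encodes a PAR bZIP activator with a large daily swing in liver and is a direct target of BMAL1 and CLOCK. It had 88.2 and 80.3 CPM in HFD-WT and 108 and 90.1 CPM in HFD-KO livers, from at least 2153 reads in each library. Both HFD-KO values were higher, but HFD-KO replicate 2 exceeded HFD-WT replicate 1 only narrowly, and in the authors' RPKM (44.8 and 41.4 against 53.6 and 44.2) the groups overlapped. The log2 fold change was 0.23 (SE 0.11, 95% interval -0.02 to 0.48, adjusted p = 0.589 by edgeR) and was not past an unadjusted p of 0.05. Without HFD-KO replicate 2 it was 0.35, with an adjusted p of 0.0409, and without HFD-KO replicate 1 it was 0.10. With the replicate number as a block, or with no filter on low counts, it was 0.23 and past an unadjusted p of 0.05. The end of Dbp overlaps Sphk2 on the opposite strand, which had between 52.2 and 58.2 CPM. The methods name a directional library kit, but whether reads were counted by strand is not given in the sources used here.

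The other PAR bZIP genes did not pass the test. Tef (ENSMUSG00000022389; chromosome 15 from 81686622 to 81711064, plus strand) had 168 and 162 CPM in HFD-WT and 166 and 165 CPM in HFD-KO livers. The groups overlapped in CPM, while in the authors' RPKM (31.8 and 31.0 against 30.8 and 30.1) both HFD-KO values were the lower ones. It was the steadiest of the 9 genes, with replicate ratios of 1.04 and 1.01 and a log2 fold change of 0.004 (SE 0.078, 95% interval -0.18 to 0.19, adjusted p = 0.992 by edgeR). Hlf (ENSMUSG00000003949; chromosome 11 from 90227362 to 90281721, minus strand) had 74.0 and 80.9 CPM against 77.7 and 69.0 CPM (log2 fold change -0.08, 95% interval -0.30 to 0.14, adjusted p = 0.85 by edgeR). The interval of Tef leaves out changes beyond about 0.19 on the log2 scale in either direction, and that of Hlf a decrease beyond 0.30.

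Nfil3 (ENSMUSG00000056749; chromosome 13 from 53121245 to 53135109, minus strand), the repressor at the D-box, had 13.8 and 17.4 CPM in HFD-WT and 14.9 and 17.2 CPM in HFD-KO livers. The HFD-KO values lay within the HFD-WT range, with a log2 fold change of 0.04 (SE 0.14, 95% interval -0.28 to 0.36, adjusted p = 0.96 by edgeR). Rora (ENSMUSG00000032238; chromosome 9 from 68561068 to 69295528, plus strand), a nuclear receptor that activates Bmal1, had 41.6 and 39.3 CPM against 37.7 and 47.5 CPM. Its HFD-KO libraries enclosed the HFD-WT libraries, so the log2 fold change of 0.07 (95% interval -0.21 to 0.35, adjusted p = 0.892 by edgeR) became 0.23, past an unadjusted p of 0.05, without HFD-KO replicate 1 and -0.10 without HFD-KO replicate 2.

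**Figure D2:**
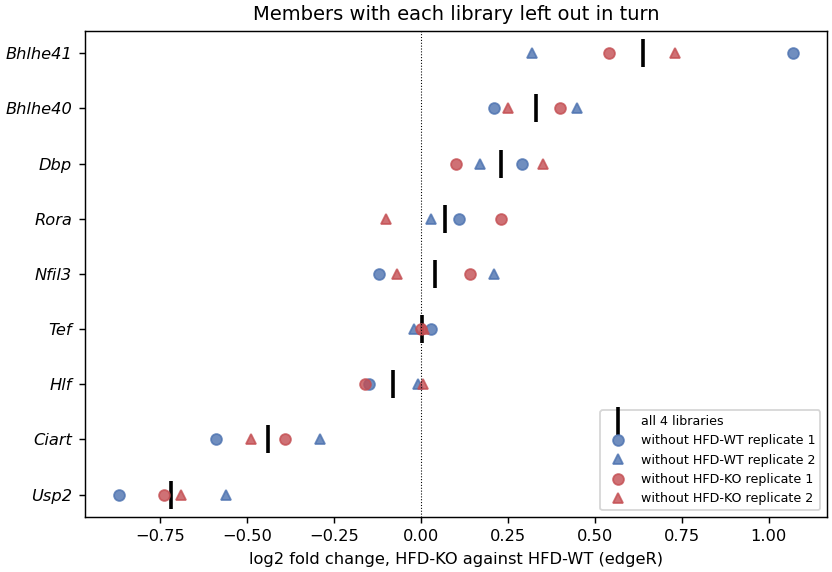
Log2 fold change between the genotypes (edgeR, positive where HFD-KO is higher) for the 9 genes, with a black bar for all 4 libraries and symbols for the fits that leave out 1 library. All fits of Usp2 (-0.87 to -0.56) and Ciart (-0.59 to -0.29) lie below 0 and all of Dbp, Bhlhe40 and Bhlhe41 above it, while Rora, Nfil3, Tef and Hlf lie on both sides.

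Levels were compared between genes only per exon length, with the authors' RPKM (reads normalised to exon length and library total). In HFD-WT livers Dbp was highest with 43.1 ± 2.38 RPKM (SD, n = 2), followed by Bhlhe40 with 32.2 ± 4.07 and Tef with 31.4 ± 0.54 RPKM. Next came Hlf with 12.5, Usp2 with 11.7, Ciart with 8.39, Nfil3 with 7.25, Rora with 3.36 and Bhlhe41 with 0.498 RPKM. The neighbours Bhlhe40 and Tef, Hlf and Usp2, and Ciart and Nfil3 overlapped between replicates, and the other neighbours did not. In HFD-KO livers the order was Dbp (48.9 RPKM), Bhlhe40 (39.0), Tef (30.4), Hlf (11.4), Nfil3 (7.18), Usp2 (6.84), Ciart (5.95), Rora (3.41) and Bhlhe41 (0.755). There Nfil3 and Usp2 were the only overlapping neighbours, and by their means Usp2 and Ciart stood below Nfil3. Bhlhe40 exceeded Bhlhe41 by a factor of between 46.1 and 93.8 in the 4 libraries, with HFD-WT replicate 2 the highest.

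**Figure D3:**
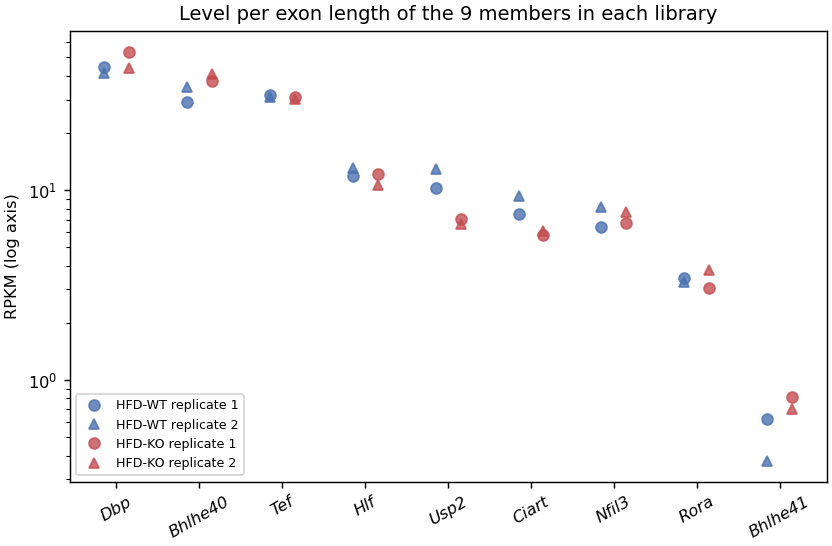
Level per exon length of the 9 genes in the authors' RPKM on a log axis, in the order of the HFD-WT mean, with blue for HFD-WT, red for HFD-KO, circles for replicate 1 and triangles for replicate 2. The means of Usp2 are 11.7 RPKM in HFD-WT and 6.84 RPKM in HFD-KO and those of Ciart 8.39 and 5.95 RPKM, with no overlap in either gene. On this scale the groups of Dbp, Hlf, Nfil3 and Rora overlap and those of Tef, Bhlhe40 and Bhlhe41 do not.

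The core loop was examined through 11 genes, of which 10 were tested, since Rorb had 0 reads in every library (a floor of 3 reads is 0.1046 to 0.1225 CPM). At an unadjusted p under 0.05 by edgeR, 3 of the 10 were called, 2 higher and 1 lower, beside 8.98% of all genes. At an adjusted p under 0.05 edgeR called 0 of the 10, beside 0.0771% of all genes. By DESeq2's Wald test 1 of the 10, Nr1d1, had an unadjusted p under 0.05, beside 5.17% of all genes, and its adjusted p was under 0.05 too. Nr1d1, which encodes the repressor REV-ERB alpha, had 82.8 and 73.4 CPM in HFD-WT and 117 and 100.2 CPM in HFD-KO livers (log2 fold change 0.47, adjusted p = 0.257 by edgeR). Its relative Nr1d2 had a log2 fold change of 0.20, which was past an unadjusted p of 0.05 in 2 of the 9 alternatives only, and with the replicate number as a block it was lost and Per2 (-0.22) was called instead. Cry1, a late repressor of the loop, had 7.49 and 6.65 CPM against 4.94 and 5.40 CPM (log2 fold change -0.45, adjusted p = 0.467 by edgeR). Clock (0.29), Per1 (0.19), Per3 (0.12), Arntl (-0.02), Npas2 (-0.15), Per2 (-0.22) and Cry2 did not pass, with their log2 fold changes in parentheses where above 0.01 in size, and the median of the list was 0.059. Of the 7 listed kinases and ubiquitin ligases of the clock, 0 were called by edgeR or by DESeq2 at an unadjusted p under 0.05. Over all genes the shares were 8.98% and 5.17%. The log2 fold changes of the 7 genes ran from -0.10 to 0.08.

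**Figure D4:**
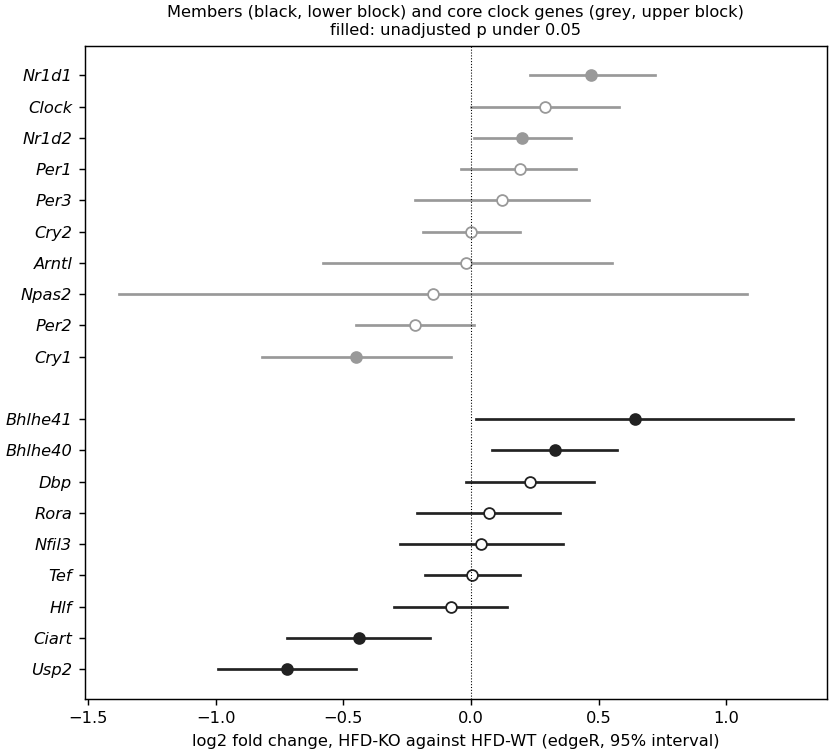
Log2 fold change between the genotypes with its 95% interval (edgeR, positive where HFD-KO is higher) for the 9 genes (black, lower block) and 10 core clock genes (grey, upper block), with filled points for an unadjusted p under 0.05. Usp2 (-0.72), Ciart (-0.44) and Cry1 (-0.45) lie to the left with intervals below 0, and Bhlhe41 (0.64), Bhlhe40 (0.33), Nr1d1 (0.47) and Nr1d2 (0.20) to the right.

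Liver genes described as targets of DBP, TEF and HLF differed in both directions. Of 13 listed targets, 3 were higher and 3 lower at an unadjusted p under 0.05 by edgeR (46.2%, beside 8.98% of all genes). At an adjusted p under 0.05 edgeR called 0 of the 13 (the lowest was 0.0578), beside 0.0771% of all genes. The median log2 fold change of the 13 was 0.176. DESeq2 gave an adjusted p under 0.05 to 5 of the 13, which were Cyp2a4, Cyp2b10, Cyp2c50, Alas1 and Acot1, beside 0.887% of all genes. The higher genes were Acot1 (60.1 and 65.0 against 84.4 and 94.1 CPM, log2 fold change 0.51) and Acot3 (0.59), which hydrolyse acyl-CoA, and the cytochrome P450 gene Cyp2c50 (0.58). The lower genes were Cyp2a4 (21.2 and 18.9 against 9.95 and 7.37 CPM, log2 fold change -1.21), Cyp2b10 (-1.60) and Alas1 (-0.47), the rate-limiting enzyme of heme synthesis. Of the 13 targets, 5 higher and 4 lower genes did not overlap between the groups, these 6 among them. Over all genes tested the shares were 20.5% and 20.3%. For Cyp2b10, with 32 and 77 reads in HFD-KO livers, the log2 fold change was -1.04 without HFD-KO replicate 1 and -2.45 without HFD-KO replicate 2. Cyp2a4, Cyp2c50 and the Acot genes have close paralogs, and how reads shared between paralogs were counted is not given in the sources used here. In the alternatives that kept all 4 libraries, 6 or 7 of the 13 were called, beside 5.17% to 9.56% of all genes. When either HFD-KO replicate was left out, this count and the share over all genes were both higher.

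Of 12 other genes with a known rhythm in liver, 3 were lower and 0 higher at an unadjusted p under 0.05 by edgeR (beside 4.73% and 4.25% of all genes), with a median log2 fold change of -0.139. Nampt, which makes NAD+ from nicotinamide, had 80.2 and 87.7 CPM in HFD-WT and 62.7 and 68.7 CPM in HFD-KO livers (log2 fold change -0.35). Wee1, a kinase of the cell cycle, had a log2 fold change of -0.34 and was called in 5 of the 9 alternatives, not by DESeq2 or with the replicate block. Lpin1, a phosphatidate phosphatase, had 162 and 334 CPM against 98.5 and 112 CPM (log2 fold change -1.24). HFD-WT replicate 2 was high in Lpin1, and without that library its log2 fold change was -0.62 and 1 of the 12 genes was called, beside 3.48% of all genes. Without HFD-KO replicate 1 the count was 5 and without HFD-KO replicate 2 it was 6, with 1 and 2 of these higher, beside 16.4% and 11.4% of all genes, and with no filter on low counts it was 5, beside 8.59%. Among 7 genes that share the ROR and REV-ERB element, only Cry1 was called at an unadjusted p under 0.05, beside 8.98% of all genes. It was not called by DESeq2, without HFD-WT replicate 1 or without HFD-KO replicate 1, and without HFD-KO replicate 2 the count was 4, beside 11.4% of all genes.

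Glucocorticoids and feeding set the phase of the liver clock, and of 8 listed genes that respond to them 2 were lower and 0 higher at an unadjusted p under 0.05 by edgeR, beside 4.73% and 4.25% of all genes. Fkbp5, a classic glucocorticoid receptor target, had 88.6 and 164 CPM in HFD-WT and 40.2 and 68.5 CPM in HFD-KO livers. Zbtb16 had 28.8 and 77.1 CPM against 11.2 and 22.9 CPM. The log2 fold changes were -1.22 and -1.63, and in both genes HFD-WT replicate 2 was the highest library by far. Without it they were -0.70 and -0.75, and Zbtb16 was no longer called, while without HFD-KO replicate 2 Zbtb16 was -2.23. HFD-WT replicate 2 was also the highest in Usp2 and Ciart, and without it their log2 fold changes were -0.56 and -0.29. That library was the highest in Lyve1 and Cd5l too. These were named above for profiles near that of Usp2, so this is no separate result. A link between any of these genes was not tested. Tsc22d3, Tat, Sgk1, Pck1 and G6pc overlapped between the groups. Per1, also on this list, went the other way, with 48.8 and 56.1 CPM in HFD-WT and 60.7 and 58.6 CPM in HFD-KO livers. Its groups did not overlap, as in 20.5% of all genes tested that were higher, and its log2 fold change of 0.19 was not called. G6pc, the catalytic subunit of glucose-6-phosphatase, had 169.9 and 255 CPM in HFD-WT and 378 and 245 CPM in HFD-KO livers (log2 fold change 0.55), which did not pass, and it was called higher with no filter, without HFD-WT replicate 2 and without HFD-KO replicate 2. Without HFD-WT replicate 2, 4 of the 8 genes were called, 3 of them higher, and without HFD-KO replicate 2, 4 were called, 2 of them higher, beside 3.48% and 11.4% of all genes in these fits. At an adjusted p under 0.05, edgeR and DESeq2 each called 0 of the kinases and ligases, the rhythmic genes, the ROR and REV-ERB genes and the genes of this list. Over all genes the shares were 0.0771% by edgeR and 0.887% by DESeq2.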

How the data were processed

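Liver polyA RNA of 2 HFD-WT and 2 HFD-KO samples was sequenced. Trimming and alignment were done by the authors with a tool of MGI Tech, and expression was estimated with Partek Genomics Suite on GENCODE genes. The methods name mm10, while the positions in the table are those of GRCm39. The deposited counts are whole and not normalized, and all tests used them. The deposited RPKM values served for levels between genes and for exon lengths. The deposited TPM values and the deposited CPM values, a score on an adjusted library size, were not used, and CPM was computed here from the counts.

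The genotypes were compared with edgeR 4.0.16 (R 4.3.3). After filterByExpr, which kept 12967 genes, and TMM scaling, a two-sided quasi-likelihood test was run, and p values were adjusted by Benjamini-Hochberg over these genes. The SE is the log2 fold change divided by the root of F. DESeq2 1.42.0, other scalings, no filter, a replicate block and leaving out each library were alternatives. The procedure was also run on independent counts simulated with the dispersions fitted here, which checks the fit and not the variation between these libraries. An exact permutation test of 2 libraries against 2 could not reach a p of 0.05 and was not run. Floors and intervals cover counting error only or the spread between libraries.

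The genes and lists were chosen with earlier results of these data known. Named by rule are all 9 genes, the core clock genes, the called genes of each other list, Adarb1, and the 5 genes nearest to the gene with the smallest p. 1 gene fixed in the pathway lists was taken out of them and of their counts and is not reported here. Genes named beyond this rule (the uncalled glucocorticoid, endothelial and Kupffer cell genes, and Sphk2) were chosen after their values were seen, and other uncalled genes enter only counts and medians. Markers were fixed lists per cell type. Upstream windows came from RefSeq. Plots were drawn with matplotlib 3.10.9.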

Additional observations from a re-analysis of the deposited data

How the results depend on the processing

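With 2 libraries a group, the libraries themselves limited the results most. Leaving out single libraries, the number of the 9 clock output genes at an unadjusted p under 0.05 ranged from 2 (without HFD-WT replicate 2) to 5, at an adjusted p from 0 to 3, and that of the core clock genes from 2 to 4. Over all genes it ranged from 462 to 2173 at an unadjusted p and from 0 to 705 at an adjusted p. Without an HFD-KO replicate, the counts of the 9 genes and of all genes were higher at either threshold than without an HFD-WT replicate. At an unadjusted p the same held for the core clock genes. The counts of the 9 genes thus moved with those of all genes. Each of these fits leaves 1 library in a group, so the counts are descriptions. With DESeq2's Wald test 1 of the 9 genes had an adjusted p under 0.05. By that test 1 core clock gene had an unadjusted p under 0.05, and the counts over all genes were 671 unadjusted and 115 adjusted. With no filter on low counts 1 of the 9 genes and 162 of all genes had an adjusted p under 0.05, and with the library size alone 6 of all genes did. With the replicate number as a block 20 genes had an adjusted p under 0.05 in place of 10, and of the 9 clock output genes only Dbp changed its side of an unadjusted 0.05. The correlation of the replicates' deviations was -0.0752, and neither the labels nor the methods describe a pairing.

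Tef, Hlf, Nfil3 and Rora each changed sign under at least 1 alternative, and of these only Rora reached an unadjusted p under 0.05, when HFD-KO replicate 1 was left out. Tef was -0.04 with the library size alone and -0.00061 with no filter, and Nfil3 was -0.0097 with the library size alone. With a library left out, the log2 fold change ranged from -0.02 to 0.03 for Tef, from -0.16 to 0.0046 for Hlf, from -0.12 to 0.21 for Nfil3 and from -0.10 to 0.23 for Rora. Usp2, Ciart, Bhlhe40, Bhlhe41 and Dbp kept their direction in 9 of 9 alternatives. These are the genes whose groups did not overlap in CPM, as in 40.8% of all genes tested. For such genes leaving out a library can hardly reverse the sign, so this is little evidence of stability. The cause of the sign changes was not tested. Library size alone shifted the median of all genes by -0.046 on the log2 scale. Bhlhe41 had the fewest reads of the clock output genes, with at least 68 in a library.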

Other observations

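Ratios within a library do not depend on its depth, and the following were chosen after the values had been seen. Dbp exceeded Usp2, in RPKM, by a factor of 4.33 and 3.19 in the HFD-WT libraries and of 7.64 and 6.64 in the HFD-KO libraries. Dbp exceeded Ciart by a factor of 5.99 and 4.46 against 9.25 and 7.24. In both ratios the 2 HFD-KO libraries were above the 2 HFD-WT libraries. That was fixed by the CPM values, where Dbp was higher and Usp2 and Ciart lower in both HFD-KO libraries. Usp2 over Ciart was 1.38 and 1.40 against 1.21 and 1.09, a narrower change between genes that were both lower in HFD-KO livers.

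The summed RPKM of Dbp, Tef and Hlf was 88.4 and 85.5 in HFD-WT and 96.5 and 84.9 in HFD-KO livers, so the groups overlapped. Dbp made up 50.7% and 48.4% of that sum against 55.5% and 52.1%. The sum exceeded the RPKM of the repressor Nfil3 by a factor of 13.9 and 10.5 against 14.4 and 11.1, and this ratio of D-box activators to repressor differed more between replicates than between groups. Nr1d1 over Dbp was 0.634 and 0.617 against 0.731 and 0.751, with no overlap.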
